A study of Mus musculus with 18 samples.

Results

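The 10 genes described here, Reg3b, Reg3g, Retnlb, Ang4, Mptx1, Pla2g2a, Saa1, Saa3, Lypd8 and Lcn2, encode antimicrobial and acute-phase proteins that the gut releases into the lumen or onto the mucosal surface. They were taken as the rows of both deposited tables that carry one of these symbols, and all 10 were found among the 52636 genes of each table. The study asked how the colon epithelium of mice differs without Olfr78, an odorant receptor that responds to short-chain fatty acids and is carried by enteroendocrine cells. RNA was sequenced in 18 libraries, 6 of sorted epithelial cells and 12 of isolated colon crypts. The library labels give no age.

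In the Olfr78-GFP line, a GFP-IRES-tauLacZ cassette takes the place of the coding exon of Olfr78, so that GFP marks the cells whose Olfr78 gene is read. The sorted libraries of this line were 2 samples of Epcam+ cells of 1 WT mouse, 2 pools of GFP+ cells of heterozygous mice (HE pools) and 2 pools of GFP+ cells of homozygous mice (KO pools), with 2 mice in each pool. The labels call the WT cells both GFP-ve and enteroendocrine, and the methods GFP-ve. The crypts of the line came from 2 WT and 5 Olfr78 KO mice, and every KO mouse carries the cassette on both alleles in every cell of the body. In the other line, the Cre recombinase is driven by the Villin promoter of intestinal epithelium and removes a floxed Olfr78 gene there. The genotype labels do not name their parts and are read here as the Cre before the slash and the floxed allele after it. On this reading, of the 3 eControl mice, mice 1 and 3 (HE/WT) carry the Cre without floxed alleles. Mouse 2 (WT/HO) carries floxed alleles without the Cre. The 2 eKO mice should carry both (HE/HO, mouse 1), but the library labelled eKO mouse 2 has the genotype label WT/HO, which is that of a control. P-values measure the spread between these libraries, and for the Epcam+ cells, 2 samples of the same mouse, that spread can be technical.

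Values are reads on a gene scaled to 20000000 reads per library and rounded up, so they are relative to the other RNA of the library. Reads on genes numbered 532702 to 2237474 in the sorted libraries and 6175301 to 10995300 in the crypts. A single read was worth 1.82 to 3.24 in the crypts, 37.5 in KO pool 1 and 8.94 to 13.3 in the 5 other sorted libraries. In KO pool 1, 3 reads, the limit that a count of 0 allows, thus make 113. Olfr78 itself was at 88 and 111 in WT crypts and at 7 to 42 in KO crypts. It was at 61 to 124 in eControl crypts, at 21 in eKO mouse 1 and at 73 in the library labelled eKO mouse 2, inside the range of the controls. Fold changes of the members in the floxed line are therefore given with and without that library. In the GFP+ cells Olfr78 was at 4822 and 4401 in the HE pools and at 977 and 837 in the KO pools. The summed level of 5 enteroendocrine markers was 848738 and 1100149 in the HE pools and 354920 to 596093 in the KO pools, against 12638 and 12917 in the Epcam+ cells, so the latter were not enteroendocrine cells by these markers. In bulk RNA, fewer cells of a type and less RNA per cell cannot be told apart.

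The members act at several points of mucosal defence. Reg3b and Reg3g are C-type lectins that bind bacterial cell walls, and IL-22, a cytokine of lymphoid cells in the mucosa, induces both through STAT3. Retnlb (RELM beta) is a goblet cell product that IL-13 induces, Ang4 is a ribonuclease of the angiogenin family that kills bacteria, Mptx1 is a mucosal pentraxin, a relative of C-reactive protein, and Lypd8 is a heavily glycosylated protein of colonocytes that binds flagella and keeps motile bacteria away from the surface. Pla2g2a is a secreted phospholipase that breaks bacterial membranes, and its gene carries a natural frameshift in C57BL/6 and 129 mice, the strains behind the Olfr78-GFP line. Saa1 and Saa3 are serum amyloid A proteins, which liver, macrophages and epithelium make in the acute phase, and Lcn2 (lipocalin 2) withholds iron from bacteria by binding their siderophores.

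The promoters of Reg3b, Reg3g, Ang4 and Mptx1 are shown, as those of the pairs of members whose crypt levels varied most closely together. RefSeq held windows of 250 bases before and 50 after a transcription start for 8 of the 10 members. The 150 bases that end at the start site, on GRCm38.p6, were chr6:78370735-78370884 (plus strand) for Reg3b, chr6:78468875-78469024 (minus strand) for Reg3g, chr14:51773591-51773740 (minus strand) for Ang4 and chr1:174330368-174330517 (plus strand) for Mptx1. Capitals mark matches to the 6 motifs searched on both strands.
Reg3b: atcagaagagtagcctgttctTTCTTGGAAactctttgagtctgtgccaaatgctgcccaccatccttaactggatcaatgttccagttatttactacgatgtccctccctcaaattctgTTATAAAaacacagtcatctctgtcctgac
Reg3g: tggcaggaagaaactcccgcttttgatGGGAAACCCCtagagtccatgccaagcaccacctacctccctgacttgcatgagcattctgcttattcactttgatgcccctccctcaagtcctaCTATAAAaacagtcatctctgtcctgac
Ang4: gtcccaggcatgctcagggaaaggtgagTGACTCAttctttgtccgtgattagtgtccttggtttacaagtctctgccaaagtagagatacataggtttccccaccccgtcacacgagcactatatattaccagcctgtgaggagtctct
Mptx1: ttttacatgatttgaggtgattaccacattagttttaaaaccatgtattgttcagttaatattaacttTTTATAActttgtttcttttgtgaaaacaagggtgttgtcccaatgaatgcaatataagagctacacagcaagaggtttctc

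The 250 bases before the start were 68.9% identical between Reg3b and Reg3g, and the pair with the next highest identity, Saa1 and Lcn2, stood at 53.5%. Reg3b held a STAT match (TTCNNNGAA) 129 bases before the start and Reg3g none, while Reg3g held a kappa B match 123 bases before its start. The STAT letters stood in 2 of the 8 members searched (Reg3b and Ang4) and in 8.3% of all 32851 RefSeq windows, and the kappa B letters in 1 of 8 and in 8.5%. C/EBP letters (TTGCNNAA), which stand in 10.8% of all windows, were found in Saa1, Saa3 and Lcn2. The AP-1 letters (TGANTCA, 7.8% of all windows) stood in Ang4 alone, the STAT6 letters (as for STAT, with 1 more base in the gap, 7.0%) in Lcn2 alone, and the CDX letters (TTTATNN, 39.9%) in 5 of 8, where in Reg3b and Reg3g a match overlaps the TATA box. These matches are a description of letters and not of binding.

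Per kb of exon, Lypd8 had the highest mean in all 7 groups (overlapping Mptx1 in the KO pools alone), with a mean of 41233.9 over the 12 crypt libraries (range 29724.3 to 57765.6). Mptx1 was next over the 12 libraries, with a mean of 10259.0, and Lcn2 was the lowest with a mean of 1.6. Lypd8 alone made up 47.8 to 92.9% of the summed level of the members, and together they held 0.0269 to 0.628% of a library. Mptx1 and Retnlb followed Lypd8 in both control groups. In WT crypts Mptx1 (7222.8 to 8279.1 per kb) stood above Retnlb (1317.5 to 2875.0), Reg3b (1068.3 to 1626.1) and Ang4 (954.9 to 1242.6), and the last 3 overlapped their neighbours. In eControl crypts Mptx1 (9473.1 to 30279.1), Retnlb (955.5 to 37339.1), Ang4 (651.6 to 10583.9) and Reg3b (2310.9 to 4373.9) came in this order and each overlapped the next. In eKO crypts Retnlb (20931.0 and 24027.3 per kb) was second, above Reg3b and Mptx1, which overlapped. Exon lengths are those of all GENCODE M21 transcripts of a gene, so the levels per kb of genes with rarely used long transcripts, such as Reg3g, are understated.

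**Figure D1:**
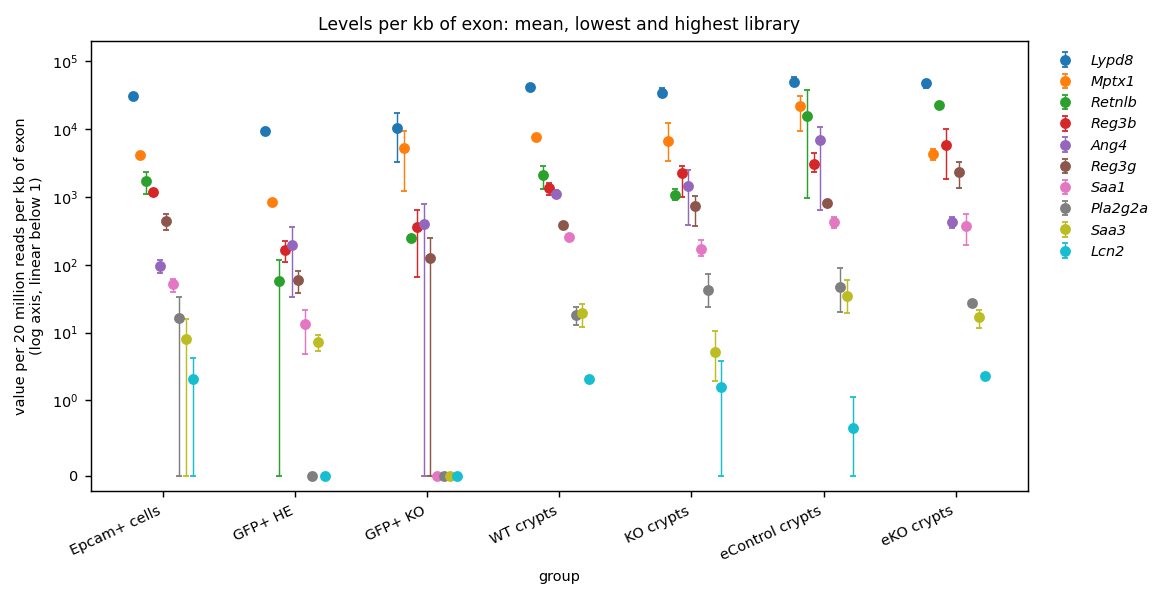
Value per 20000000 reads per kb of exon (log axis, linear below 1) of the 10 members in the 7 groups; points are means and bars run from the lowest to the highest library. Lypd8 is the highest point in every group, and Retnlb and Ang4 have the longest bars among the eControl crypts.

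In the GFP+ HE pools Mptx1 fell against Epcam+ cells, the only member past the thresholds (adjusted p under 0.001 and a log2 fold change beyond 2), which 1.75% of the 16355 genes tested passed and 0.171% passed as lower. The values of the groups did not overlap for 6 of the 7 members tested, all 6 lower in the HE pools, beside 63.5% of all genes tested, 33.1% as lower. Retnlb and Saa1 met the filter of 40 in at least 2 libraries through the Epcam+ cells, where they are high, so these counts are a description. The summed level of 8 goblet cell markers was 147506 and 68183 in HE pools 1 and 2 but 353847 and 305450 in Epcam+ cells. That of 7 colonocyte markers was 66834 and 51262 against 97291 and 85197, although 1 of them, Krt20, rose past the thresholds. The part of goblet cells and colonocytes in the lower values of the members was not tested. The median log2 fold change was -2.32 over these 7 and -0.05 over all genes. Between KO and HE pools, 0 of the 3 members tested passed an adjusted p under 0.05, which 0% of the 11892 genes passed in limma. Of the 3 members, 1, Mptx1, was at an unadjusted p under 0.05 in limma, which 4.23% of all genes reached, and edgeR and DESeq2 called 0 of the 3. Its groups did not overlap, which held for 35.0% of all genes. None of the 3 passed the second criterion, a difference of the means beyond 2 times the average SD and a 1.5-fold ratio, which 13.2% of the genes passed (384 higher and 1188 lower as deposited, 655 higher and 633 lower after median-of-ratios rescaling).

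In the crypts of the Olfr78-GFP line, Reg3g rose and Retnlb and Saa1 fell in KO mice, and Pla2g2a also passed, so that 4 of the 8 members tested did, at an adjusted p of at most 0.2 and a fold beyond 1.5. These thresholds were passed by 9.48% of the 15975 genes tested, 7.95% as higher and 1.53% as lower. Pla2g2a was tested only because 2 KO libraries met the filter, with both WT libraries under it, so its pass is a description and the count without it is 3 of 7. The values of 3 of the 8 members did not overlap between the groups (Retnlb, Saa1 and Lypd8, all lower in KO), beside 31.3% of all genes, 13.1% as lower. In the floxed line 0 of 8 members passed, with and without the library labelled eKO mouse 2, and 0% of the 15401 genes tested. There 3 members (Mptx1, Reg3g and Ang4) were at an unadjusted p under 0.05 in limma, which 0.825% of all genes reached, edgeR called 0 and DESeq2 called 1 (Reg3g, adjusted p = 0.0920), and the groups did not overlap for the same 3 members, beside 10.4% of all genes. With both lines in 1 fit, 0 of 9 members passed, beside 0.0243% of 16447 genes. In limma 4 members were at an unadjusted p under 0.05, which 7.7% of all genes reached, while edgeR called 0 and DESeq2 called 1 (Reg3g, adjusted p = 0.0167). Where a library left out leaves 1 in its group, that library is assumed to vary like those of the other groups. The genotype effect differed between the lines for 0 of 9 members at an adjusted p of at most 0.2, beside 0.0304% of the genes. In limma 2 members were at an unadjusted p under 0.05, which 8.77% of all genes reached, and 0 were called by edgeR or DESeq2.

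**Figure D2:**
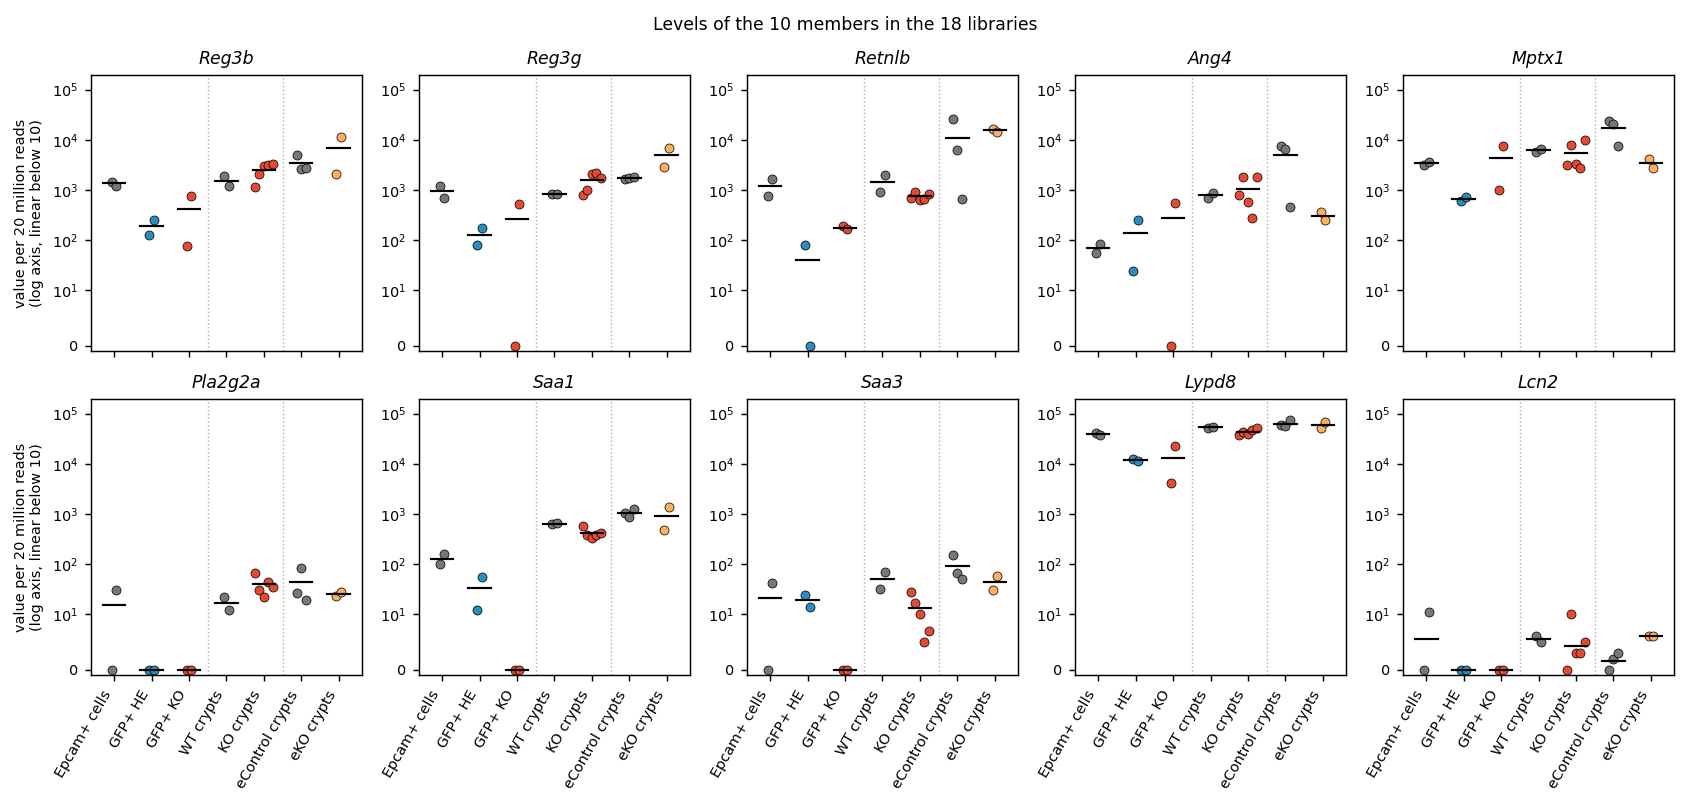
Value per 20000000 reads (log axis, linear below 10) of each member in each of the 18 libraries, by group; points are libraries, bars are group means, and dotted lines part the sorted cells, the crypts of the Olfr78-GFP line and the crypts of the floxed line. The HE pools lie below the Epcam+ cells for Reg3b, Reg3g, Retnlb, Mptx1, Saa1 and Lypd8, and the 3 eControl libraries are far apart for Retnlb and Ang4.

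The C-type lectins came first. Reg3b (chromosome 6, 78370657 to 78373466) was at 1466 and 1223 in Epcam+ cells, at 127 and 254 in the HE pools, and at 76 (2 reads) and 744 in the KO pools. Reg3g (chromosome 6, 78466269 to 78468872) was at 1171 and 689, at 81 and 174, and at 0 and 523 in the same libraries. Both were lower in HE pools than in Epcam+ cells without overlap, and in the KO pools they were high in pool 2 and at 2 reads or fewer in pool 1. The log2 fold change of HE pools against Epcam+ cells was -2.83 ± 0.37 (SE) for Reg3b, with an adjusted p of 0.00168. For Reg3g it was -2.81 ± 0.45, with an adjusted p of 0.00395. Neither passed 0.001 in limma, and both did in edgeR and DESeq2. For KO against HE pools Reg3b had a log2 fold change of 0.42 ± 0.95 (adjusted p = 0.967) and turned to -1.14 without KO pool 2, and Reg3g was not tested, being at 0 in KO pool 1.

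In crypts, Reg3g was at 813 and 829 in the WT mice and at 785, 1017, 2041, 2196 and 1689 in the KO mice, so 4 of 5 KO libraries lay above both WT libraries and 1 below. It rose by a log2 fold change of 0.80 ± 0.32 (SE, adjusted p = 0.140). This call was lost without WT mouse 1 (adjusted p = 0.398), WT mouse 2 (0.432), KO mouse 3 (0.217) or KO mouse 4 (0.204), and also without the trend (0.251), without a filter (0.289) and with DESeq2 (0.210). Reg3g in the floxed line was at 1657, 1694 and 1846 in eControl crypts and at 2842 and 6980 in eKO crypts, where both libraries lay above all controls. Its log2 fold change there was 1.36 ± 0.34 (adjusted p = 1), 0.71 without the library labelled eKO mouse 2 and 2.01 (adjusted p = 0.108) without eKO mouse 1, where the eKO group is the library labelled eKO mouse 2 alone and the spread is that of the controls. Over both lines the log2 fold change of Reg3g was 1.05 ± 0.27 (adjusted p = 0.496). It stayed above 0 in all 21 alternatives to that fit, between 0.62 and 1.21.

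Reg3b was at 1857 and 1220 in WT and at 1138, 2122, 2947, 3170 and 3287 in KO crypts, where the groups overlapped. Its log2 fold change was 0.65 ± 0.33 (adjusted p = 0.234), and it passed without KO mouse 1 (0.91, adjusted p = 0.0153). The eControl crypts were at 4995, 2639 and 2764 and the eKO crypts at 2119 and 11325, with the controls between them. The highest Reg3b value of the 18 libraries thus came from the library labelled eKO mouse 2. The log2 fold change of Reg3b in the floxed line, 0.56 ± 0.64 (adjusted p = 1), turned to -0.64 without that library. None of the 100-base windows of Reg3b or Reg3g transcripts was found in another gene, so reads of that length can be told apart between these lectins.

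Retnlb (chromosome 16, 48816856 to 48818892) had the widest range within a group of crypts. In sorted cells it was at 769 and 1613 in Epcam+ cells, at 81 (7 reads) and 0 in the HE pools and at 188 (5 reads) and 163 in the KO pools. The log2 fold change of HE pools against Epcam+ cells was -5.22 ± 0.93 (adjusted p = 0.00599), a fitted value that depends on the pseudocount where a library is at 0. WT crypts were at 917 and 2001, and KO crypts at 694, 907, 625, 645 and 842, all below both WT libraries. Retnlb fell there by 0.87 ± 0.24 on the log2 scale (adjusted p = 0.0442), but without WT mouse 2 the log2 fold change was -0.32 (adjusted p = 0.510). The eControl crypts of the floxed line were at 25988, 6379 and 665, a 39.1-fold range, and the eKO crypts at 16723 and 14568. The eKO values lay inside the range of the controls, and the log2 fold change of 1.70 ± 1.27 had an adjusted p of 1 (1.79 without the library labelled eKO mouse 2, adjusted p = 0.734). Over both lines it was 0.30 ± 0.71 (adjusted p = 0.922), and it turned to -0.32 with edgeR and to -0.36 with DESeq2.

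Ang4 (chromosome 14, 51763878 to 51773590) was scarce in sorted cells, at 54 and 83 in Epcam+ cells, at 24 (2 reads) and 254 in HE pools and at 0 and 558 in KO pools, and these groups overlapped. For HE pools against Epcam+ cells its log2 fold change was 0.30 ± 0.92 (adjusted p = 0.851), -1.18 without HE pool 2. In crypts of the Olfr78-GFP line Ang4 was at 677 and 881 in WT and at 799, 1772, 568, 277 and 1789 in KO mice, with KO libraries on both sides of the WT libraries (log2 fold change 0.11 ± 0.55, adjusted p = 0.923). Among the floxed mice the eControl crypts were at 7504, 6616 and 462 and the eKO crypts at 356 and 246. Both eKO libraries lay below all controls, but eControl mouse 3 lay far nearer to them than to the other controls. The log2 fold change was -3.23 ± 1.08 (adjusted p = 1). Without the library labelled eKO mouse 2 it was -2.97 (adjusted p = 0.678), and without eControl mouse 3 it was -4.53, which passed with an adjusted p of 0.00666. The summed level of the 8 goblet cell markers in eControl mice 1 to 3 was 643067, 517178 and 402014, and in the eKO mice 387793 and 551279. That of 6 leukocyte markers was 1572, 793 and 403 in the same controls and 601 and 596 in the eKO mice. The part of goblet cells and leukocytes in the levels of Retnlb and Ang4 was not tested.

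Mptx1 (chromosome 1, 174330518 to 174332873) was at 3174 and 3555 in Epcam+ cells and at 610 and 721 in the HE pools. It fell by 2.32 ± 0.21 on the log2 scale (adjusted p = 0.000258), a call that was lost without sample 2 of the Epcam+ cells (adjusted p = 0.00104), with a pseudocount of 1 (0.00217), without the trend (0.0163) and with all 6 sorted libraries in 1 fit (0.0923). The KO pools were at 977 (26 reads) and 7553, both above the HE pools and pool 2 also above the Epcam+ cells. The log2 fold change of KO against HE pools was 2.02 ± 0.79 (adjusted p = 0.931), 3.49 without KO pool 1, where pool 2 stands alone and the adjusted p of 5.67e-06 rests on the spread of the HE pools, and 0.55 without KO pool 2. Beside that, the summed level of the goblet cell markers, led by the mucin Muc2, was 63229 in KO pool 1 and 332124 in KO pool 2. The part of goblet cells in the value of Mptx1 was not tested.

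In crypts Mptx1 was at 5771 and 6615 in WT and at 3121, 7803, 3332, 2691 and 9882 in KO mice, with KO libraries on both sides of the WT libraries (log2 fold change -0.41 ± 0.41, adjusted p = 0.566). For the floxed line it was at 24193, 20588 and 7569 in eControl and at 4045 and 2753 in eKO crypts, and both eKO libraries lay below all controls. The log2 fold change was -2.22 ± 0.47, the smallest unadjusted p in limma among the 15401 genes tested (rank 1), with an adjusted p of 1. It was -1.94 without the library labelled eKO mouse 2 (adjusted p = 0.678) and -2.74 without eControl mouse 3, which passed with an adjusted p of 0.130. Over both lines it was -1.24 ± 0.43 (adjusted p = 0.618). A share of 3.3% of the 100-base windows of Mptx1 was also found in Mptx2, its Paneth cell relative.

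**Figure D3:**
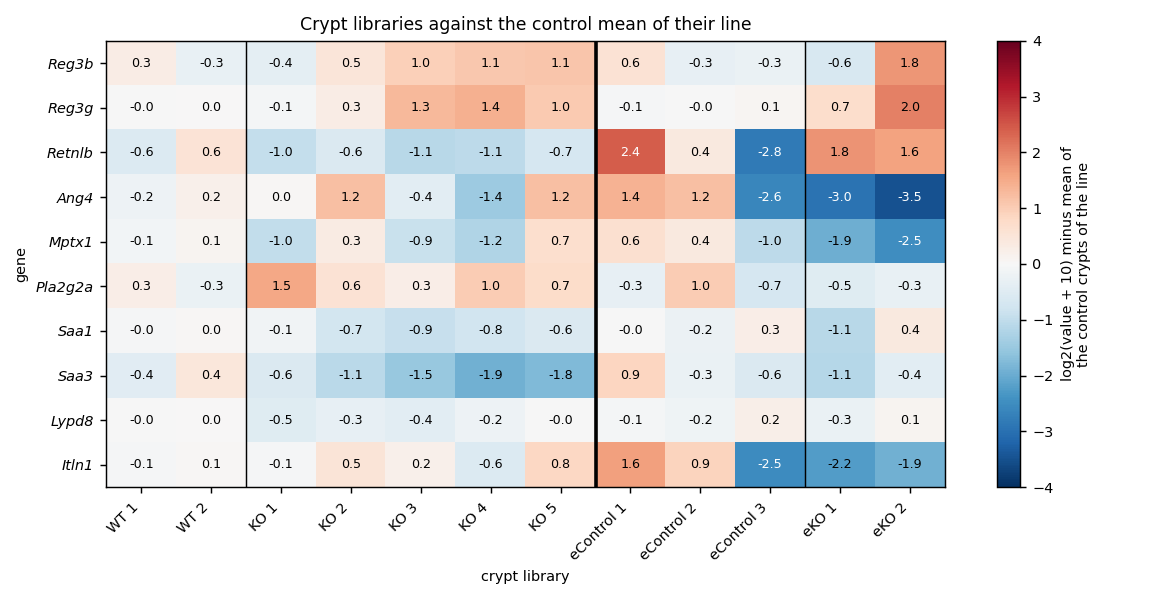
Log2(value + 10) of 9 members and of Itln1 in each of the 12 crypt libraries, minus the mean of the control crypts of the same line; red is above and blue below that mean, and the thick line parts the Olfr78-GFP line (left) from the floxed line (right). In the floxed line Ang4, Mptx1 and Itln1 are below the mean in eControl 3, eKO 1 and eKO 2, and Retnlb is below it in eControl 3 alone.

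Lypd8 (chromosome 11, 58379043 to 58390728) was at 41771 and 36798 in Epcam+ cells and at 12543 and 11415 in the HE pools, without overlap. Its log2 fold change of -1.71 ± 0.18 had an adjusted p of 0.000611 but did not reach the fold threshold. The KO pools were at 4130 and 22229, on both sides of the HE pools, and the log2 fold change of -0.32 ± 0.66 (adjusted p = 0.965) was 0.30 with edgeR and with DESeq2. It was -0.16 after median-of-ratios rescaling, which moved the median over all genes from -0.18 to -0.02. In crypts Lypd8 had the narrowest relative range of the members, 38166 to 74171. It was at 52529 and 53297 in WT and at 38166, 42473, 39785, 46436 and 51824 in KO mice, all KO libraries being lower, with a log2 fold change of -0.28 ± 0.13 (adjusted p = 0.194) that did not reach 1.5-fold. The floxed line was at 60114, 55992 and 74171 in eControl and 52079 and 68466 in eKO crypts, where the groups overlapped (log2 fold change -0.08 ± 0.27, adjusted p = 1, and -0.27 without the library labelled eKO mouse 2, adjusted p = 0.764). The summed level of 7 colonocyte markers lay at 145400 and 152441 in WT and at 106435 to 132388 in KO crypts, lower in all 5 KO libraries. That sum is led by Car1, whose log2 fold change was -0.52. The markers did not fall as a class: their median log2 fold change was 0.11, and 1 of them, Ceacam20, rose past the thresholds (0.61). The part of colonocytes in the level of Lypd8 was not tested.

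Pla2g2a (chromosome 4, 138831857 to 138835186) was close to the limit of detection. It was at 0 and 31 (3 reads) in Epcam+ cells and at 0 in all 4 GFP+ pools. WT crypts were at 22 and 12 and KO crypts at 67, 30, 22, 44 and 34, with 4 of 5 KO libraries above both WT libraries and 1 level with the higher of them. Its log2 fold change of 0.83 ± 0.36 (adjusted p = 0.165) passed, having met the filter through KO mice 1 and 4, where it is high. Without either of these it was not tested, and the call was lost without WT mouse 1 (adjusted p = 0.269) or WT mouse 2 (0.620), without a filter (0.400), with DESeq2 (0.211) and with a pseudocount of 40, where the fold was under 1.5. The floxed line was at 27, 83 and 19 in eControl and 23 and 28 in eKO crypts, where the groups overlapped and the gene did not pass the filter of 40 in at least 2 libraries. Its locus holds Pla2g5 on the opposite strand, without shared exons.

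Among the acute-phase genes, Saa1 (chromosome 7, 46740497 to 46742980) was at 99 and 155 in Epcam+ cells, at 12 (1 read) and 54 (4 reads) in the HE pools and at 0 in both KO pools. Its log2 fold change of HE pools against Epcam+ cells was -1.84 ± 0.71 (adjusted p = 0.0963). In crypts it was at 618 and 661 in WT and at 575, 383, 333, 371 and 424 in KO mice, and every KO library was below both WT libraries. Saa1 fell there by 0.63 ± 0.18 on the log2 scale (adjusted p = 0.0491). Without WT mouse 2 its adjusted p was 0.320, and without KO mouse 3 the log2 fold change of -0.56 (adjusted p = 0.0784) no longer reached 1.5-fold. Floxed mice were at 1024, 877 and 1250 in eControl and at 478 and 1368 in eKO crypts. The library labelled eKO mouse 2 was above all controls and eKO mouse 1 below them, with a log2 fold change of -0.36 ± 0.40 (adjusted p = 1) that was -1.10 without the former and 0.39 without the latter. Over both lines the log2 fold change was -0.50 ± 0.22 (adjusted p = 0.626), and -0.79 without the library labelled eKO mouse 2, when it passed with an adjusted p of 0.147. Of the 100-base windows of Saa1, 9.0% were also found in Saa2, its neighbour in the same cluster, so the split of reads between these genes is uncertain.

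Saa3 (chromosome 7, 46711998 to 46715700) was at 0 and 42 in Epcam+ cells, at 24 and 14 in the HE pools and at 0 in both KO pools, none with more than 4 reads. In crypts it was at 32 and 68 in WT and at 28, 17, 10, 5 and 7 in KO mice, lower in every KO library, but it did not pass the filter of that comparison. In the floxed line it was at 154, 65 and 50 in eControl and at 31 and 57 in eKO crypts (log2 fold change -0.79 ± 0.49, adjusted p = 1, and -1.14 without the library labelled eKO mouse 2, adjusted p = 0.678). Over both lines the log2 fold change of Saa3 was -1.11 ± 0.33 (adjusted p = 0.570), below 0 in all 21 alternatives, between -1.55 and -0.66. Saa3 met the filter of 40 in the floxed line and over both lines mostly through control crypts, where it is high (68 in WT, and 154, 65 and 50 in eControl). Among the Olfr78-deficient groups only the library labelled eKO mouse 2 (57) reached it, so these values are a description. Macrophages express Saa3. The summed level of 7 myeloid markers (8 entries, as Itgam has 2 and both were counted) was 354 and 216 in WT and 145 to 207 in KO crypts. That of 6 leukocyte markers was 791 and 758 in WT and 276 to 580 in KO crypts, with 5 or 6 of the 6 above 0 in every library. Both sums were lower in every KO library, the myeloid sum by a small margin between WT mouse 2 (216) and KO mouse 1 (207). The part of these cells in the levels of Saa3 and Saa1 was not tested. Lcn2 (chromosome 2, 32384633 to 32388252) was at 0 to 11 in all 18 libraries and was tested in no comparison. Its highest values, 11 in sample 2 of the Epcam+ cells and 10 in KO mouse 2, were 1 and 3 reads.

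**Figure D4:**
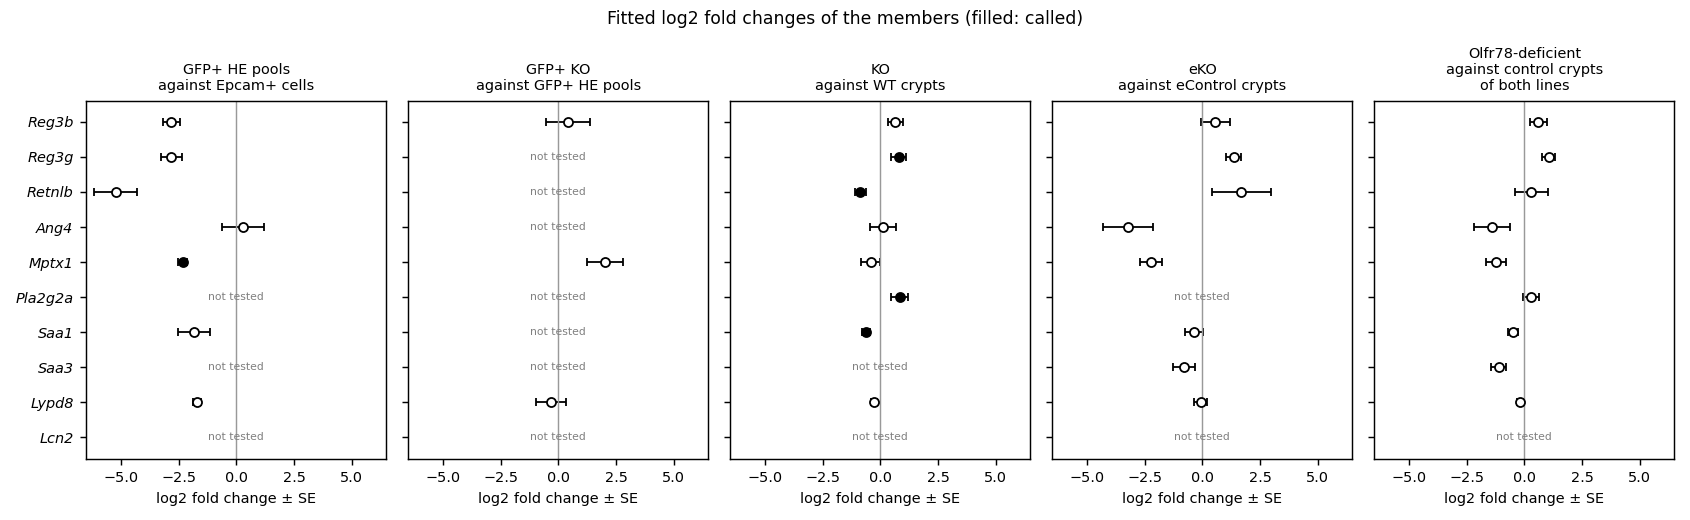
Fitted log2 fold change (x axis) with its SE (bars) of each member in 5 comparisons; filled points passed the thresholds of the comparison, open points did not. Filled points are Mptx1 in the HE pools and Reg3g, Retnlb, Pla2g2a (tested through the KO libraries where it is high) and Saa1 in KO crypts, and the widest bars belong to Ang4, Retnlb and the KO pools.

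The fit of both lines together estimated 1 common genotype effect, and only the interaction term asked whether that effect differed between the lines. Reg3g had log2 fold changes above 0 in each line, with and without the library labelled eKO mouse 2. Reg3b did only with that library, as eKO mouse 1 lay below all controls. Saa1, Saa3 (not tested in the Olfr78-GFP line), Mptx1 and Lypd8 were below 0 where tested, with and without the library labelled eKO mouse 2. Without eKO mouse 1, Saa1 turned to 0.39 and Lypd8 to 0.12 in the floxed line. Saa3 met the filter there mostly through control crypts, where it is high, so its direction is a description. Leaving out eKO mouse 1 leaves the library of doubtful genotype as the whole eKO group. The log2 fold changes in the fit of both lines were then 1.03 for Reg3b, 1.21 for Reg3g, -1.13 for Mptx1 and -1.05 for Saa3. These members are listed because they came to pass in that setting, and the others are left out. Without the library labelled eKO mouse 2, that of Saa1 was -0.79. Ang4 and Mptx1 had the log2 differences between the lines with the smallest p among the members, -3.34 ± 1.32 and -1.81 ± 0.74, floxed minus Olfr78-GFP line, each with an adjusted p of 0.557.

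The level of a member in the 12 crypt libraries, centred within its group, was set beside that of 16446 other genes, as a description without a test. Among members, Ang4 and Mptx1 had the highest Pearson r (0.91), ahead of Reg3b and Reg3g (0.83) and of Retnlb and Ang4 (0.82). The 5 libraries of the floxed line spread widest for Retnlb and Ang4, so the r between them rests in part on these libraries. That of Reg3b and Reg3g rests in part on the distance between the 2 eKO libraries and in part on the KO crypts. The share of each group in these r values was not computed. The genes most like Retnlb were Zfp101 (r = 0.93), Itln1 (0.93) and Dock11 (0.92), and those most like Ang4 were Cask (0.93), Itln1 (0.92) and Gm17021 (0.92). Itln1 encodes an intelectin, a lectin of goblet and Paneth cells. For Mptx1 they were Cavin3 (0.92), Sms (0.91) and Fam185a (0.91). Reg3b was followed most closely by U2af1l4 (0.97), Zfp983 (0.96) and Gm28044 (0.95), and Reg3g by Pip5k1b (0.97), Uba3 (0.96) and Lmln (0.95). The closest genes were Rapgef4 (0.96), Gm43307 (0.94) and Cntn3 (0.93) for Saa1, Mir7082 (0.96), Nipal1 (0.95) and Tbc1d7 (0.94) for Saa3, Fbxo30 (0.93), Slc2a12 (0.90) and Gm15594 (0.90) for Pla2g2a, and Ppp2r3d (0.98), Pdlim1 (0.97) and Slc40a1 (0.97) for Lypd8.

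A list of 55 other antimicrobial and acute-phase genes, 54 of them in the tables, was read in the same fits. In the HE pools 0 of 20 tested passed in either direction, with a median log2 fold change of -1.60 beside -0.05 over all genes, and its most abundant gene, Muc2, had a log2 fold change of -1.64 ± 0.36 (adjusted p = 0.0141). Between KO and HE pools 0 of 11 passed. In KO crypts 3 of 23 rose and 2 fell, beside 7.95% of all genes as higher and 1.53% as lower. Duox2, the oxidase that makes hydrogen peroxide at the epithelial surface, rose by 1.04 ± 0.16 on the log2 scale (adjusted p = 0.00616), and its maturation factor Duoxa2 rose by 0.88 ± 0.18 (adjusted p = 0.0155). Pla2g5, another secreted phospholipase, rose by 0.99 ± 0.34 (adjusted p = 0.0918). Reg4, a lectin of deep crypt secretory cells, fell by 1.89 ± 0.51 (adjusted p = 0.0431), and Lyz2, the lysozyme of macrophages, fell by 1.34 ± 0.42 (adjusted p = 0.0701). Lyz2 had a mean of 39.6 over WT and KO crypts, under the filter of 40. It may have met the filter through WT crypts, where it is high, so its pass is a description. Of those tested in the floxed line 0 of 26 passed, and over both lines 0 of 27 (0 of 24 and 0 of 25 without the library labelled eKO mouse 2), with Muc2 at log2 fold changes of 0.04 ± 0.44 and 0.21 ± 0.24.

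Of 50 genes of the signalling that is known to act on the members (cytokine receptors, JAK, STAT, NF-kappa B and nuclear receptor genes), 43 were tested in crypts. In KO crypts Nfkbiz, a nuclear cofactor of NF-kappa B, rose by 0.77 ± 0.14 on the log2 scale (adjusted p = 0.0117), and Socs1, a JAK inhibitor, fell by 0.65 ± 0.30 (adjusted p = 0.198). These 1 higher and 1 lower of 43 stand beside 7.95% of all genes as higher and 1.53% as lower. None of the 43 passed in the floxed line or over both lines, with or without the library labelled eKO mouse 2. The most abundant, the vitamin D receptor Vdr, had log2 fold changes of -0.10 ± 0.12 in KO crypts and -0.07 ± 0.21 in eKO crypts. In the HE pools 1 of 43 rose, the IL-6 receptor Il6ra, by 4.32 ± 0.39 (adjusted p = 0.000301), beside 1.75% of all genes past the thresholds. Between KO and HE pools 0 of 38 passed.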

How the data were processed

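RNA of sorted cells and crypts was read paired-end, and per the labels and methods the authors mapped it to GRCm38 with STAR and counted reads per gene with HTSeq (Ensembl annotation, versions as far as given in the sources used here). The deposited signal of sorted cells is the number of reads on a gene times 20000000 over those of the library, with fractions raised to the next integer. The deposited values of the crypts were made alike and are treated as a score. The tables were normalized separately, and all columns were used. Whole reads were recovered from 99.8 to 99.99% of the values above 0 of a library (a value counts as whole if it is exactly a rounded-up multiple of 1 read). Strand settings of the counting were not given in the sources used here.

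Samples were grouped by title. Genes at 40 or more in at least 2 libraries compared (above 40 in all 4 pools for KO against HE pools) were tested with limma 3.58.1 in R 4.3.3, with a trend, on log2(value + 10), with Benjamini-Hochberg adjustment over all genes tested, and fold changes are on that scale, which understates those of low genes. The thresholds are given with each comparison. The crypts were fitted over both lines with a term for the line, in each line separately, and with an interaction term. The methods name edgeR for crypts and for HE pools against Epcam+ cells, and limma was used in its place because the deposited values are scaled. The thresholds of those comparisons and the second criterion follow the methods. The recovered reads were tested with edgeR 4.0.16 (quasi-likelihood) and DESeq2 1.42.0 as alternatives: for HE pools against Epcam+ cells they called 759 and 691 genes, against 287 by limma, and for KO against WT crypts 1641 and 1289, against 1514. Other alternatives were pseudocounts of 1 and 40, rescaling, no filter, no trend, a replicate block and leaving out each library. All scripts were tested on simulated reads. The SEs are those of limma and rest on the spread between libraries, while floors given in reads cover counting error only.

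Members and gene lists were chosen with earlier results of these data known. All 10 members are named in every comparison, with the 3 genes most alike in crypts by Pearson r, and, of other lists, genes past the thresholds and the most abundant one. Positions, lengths and shared 100-base windows are from GENCODE M21 (GRCm38), promoters from RefSeq (GRCm38.p6), aligned with Biopython 1.88. Library numbers in the titles name different animals and were not used to pair libraries.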

Additional observations from a re-analysis of the deposited data

Results flagged for a closer look

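Retnlb and Pla2g2a were flagged because all libraries without Olfr78 moved one way from the control mean in the Olfr78-GFP line and the other way in the floxed line. All 5 KO crypts were below the WT mean for Retnlb and both eKO crypts were above the eControl mean, and the log2 difference of the genotype effects, floxed minus Olfr78-GFP line, was 2.57 ± 1.30 (SE), with an adjusted p of 0.563 in limma. For Pla2g2a all 5 KO crypts were above the WT mean and both eKO crypts below the eControl mean, with a log2 difference of -1.22 ± 0.64 and an adjusted p of 0.567. Neither difference passed its test, and each rests in part on the library labelled eKO mouse 2.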

How the results depend on the processing

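Over 715 alternative values of single members, 630 kept their direction and side of the threshold, 34 came to pass it, 21 no longer passed and 30 changed sign. Of the members called in HE pools against Epcam+ cells (1 as reported), a pseudocount of 1, no trend and all 6 sorted libraries in 1 fit each gave 0, no filter 2, a pseudocount of 40 and DESeq2 3 each, edgeR 4, and leave-outs 0 to 4. Over all genes these settings called 77 (pseudocount of 1), 522 (pseudocount of 40), 0 (no trend), 117 (6 libraries), 759 (edgeR) and 691 (DESeq2), against 287. DESeq2 called 2 members in KO crypts and edgeR 5, Reg3b added (4 as reported), and DESeq2 called Reg3g, 1 member, in the floxed line and over both lines (0 as reported in each), and leave-outs gave 0 to 5 in KO crypts, 0 to 2 in the floxed line, 0 to 4 over both lines, 0 to 1 for KO against HE pools and 0 to 1 for the difference between the lines. In KO crypts, 854 genes passed with a pseudocount of 40, against 1514, and 953 and 546 without WT mouse 1 or 2. Over both lines 1134 genes passed without eKO mouse 1, against 4, and 4296 differed between the lines without the library labelled eKO mouse 2, against 5. The second criterion for KO against HE pools took 1 member with the population SD (Mptx1), beside 2221 of 11892 genes. With a filter of 40 in at least 2 pools it took 1 (Retnlb), beside 2422 of 15961 genes. Retnlb met that filter through the KO pools, where it is high, so its pass is a description. This criterion could not be computed with a pool left out. The cause of these changes was not tested.

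Signs changed with edgeR and DESeq2 for Lypd8 in KO against HE pools (0.30 with each), for Retnlb over both lines (-0.32 and -0.36, and -0.71 without the line as a term) and for Reg3b between the lines (0.20 and 0.21). With a library left out, log2 fold changes ran from -1.18 to 1.77 for Ang4 in HE pools, from -1.14 to 1.99 for Reg3b and from -1.53 to 0.89 for Lypd8 in KO against HE pools, from -0.40 to 0.87 for Retnlb and from -3.54e-05 to 0.54 for Pla2g2a over both lines, from -0.16 to 0.50 for Ang4 in KO crypts, from -0.64 to 1.77 for Reg3b, from -1.10 to 0.39 for Saa1 and from -0.27 to 0.12 for Lypd8 in eKO crypts. Between the lines they ran from -1.29 to 1.12 for Reg3b, from -0.085 to 1.21 for Reg3g and from -0.48 to 1.02 for Saa1.

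Library numbers do not pair animals, and deviations of same-numbered libraries correlated at 0.03 (Epcam+ cells and HE pools), -0.24 (HE and KO pools), 0.06 and -0.10 (WT and KO crypts) and 0.59 and 0.36 (eControl and eKO crypts). With the number as a block, 2 members were called in HE pools and 3 in KO crypts. The block leaves out eControl mouse 3, which has no partner, from the floxed line, and 2 members were called there, with Lypd8 at 0.042. Over both lines Retnlb was at -0.24 with the block. The depth of KO pool 1 limits all values of the KO pools, and Lcn2 and Saa3 in sorted cells lie at 4 reads or fewer.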

Other observations

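Itln1, an intelectin that is no member, was at 477 and 278 in eControl mice 1 and 2, at 17 in eControl mouse 3 and at 23 and 31 in the eKO mice. In the Olfr78-GFP line it was at 14 and 16 in WT and at 7 to 34 in KO crypts, so the 2 libraries above 34 were those with the highest Ang4 and Mptx1 of the series. Slpi, a secreted protease inhibitor chosen here after its values were seen, was at 685 in eKO mouse 1 and 59 in the library labelled eKO mouse 2, against 214, 218 and 325 in the eControl crypts and 25 to 85 in the crypts of the Olfr78-GFP line.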
